A study of Homo sapiens with 6 samples.

Results

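The transcripts of 10 amino acid transporter genes were followed in THP-1 cells after knockdown of NFIC. The genes are SLC7A5, SLC3A2, SLC7A11, SLC7A1, SLC7A6, SLC1A5, SLC1A4, SLC38A1, SLC38A2 and SLC43A1, taken as a list of names and found by gene symbol. The list was chosen with earlier results of these data known. All 10 genes were present among the 33981 genes of the deposited table. THP-1 is an established monocytic acute myeloid leukemia cell line. The cells were transduced on retronectin with a lentivirus carrying either a scrambled shRNA (3 samples, the control) or an shRNA against NFIC (3 samples), and the GFP-positive cells of both groups were sorted on day 4 for bulk mRNA sequencing. NFIC is a transcription factor of the nuclear factor I family. Both groups therefore share the transduction, the GFP reporter and the sort, and they stand for 1 cell line and 1 NFIC hairpin, named sh494 in the study. The labels and the study's results name the control as scrambled, its methods describe a vector with GFP only, and the labels do not say whether the samples of a group were separate cultures. The p-values then measure only the spread between these samples, which may be technical.

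Mammalian cells take up amino acids through carriers that differ in what they move and in what drives them. SLC3A2 (CD98 heavy chain) is a glycoprotein that carries no amino acid itself but brings its partners, the light chains SLC7A5, SLC7A6 and SLC7A11 among them, to the plasma membrane. Exchangers such as SLC7A5 trade one amino acid for another, so they rely on carriers such as SLC38A1 and SLC38A2 that load the cell using the sodium gradient. In leukemia cells these carriers are best known for supplying glutamine, leucine and cystine to growth signalling through mTORC1, protein synthesis and glutathione.

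With NFIC shRNA, 8 of the 10 transporter transcripts were lower and 2 were higher than with scrambled shRNA (edgeR's quasi-likelihood test, Benjamini-Hochberg adjusted p under 0.05 over 19182 genes tested). The transcripts that fell were SLC43A1, SLC7A5, SLC1A5, SLC7A1, SLC7A11, SLC1A4, SLC3A2 and SLC38A1, in that order of size. SLC38A2 and SLC7A6 rose. Knockdown changed many genes of these cells in either direction, and 30.3% of all genes tested were called lower and 29.6% were called higher. In all 10 genes the 3 samples of one group lay outside the range of the other in FPKM. The NFIC shRNA samples were all below the scrambled samples for 8 of the genes, as they were for 32% of all genes tested, and all above them for 2, as for 33.2% of all genes tested. The median log2 fold change was -0.557 over the 10 transporters and -0.0113 over all genes tested. Since these genes and the lists below were chosen with earlier results known, their differences from all genes are a description only. FPKM are the deposited normalized reads per kilobase of gene length, a scale on which levels of different genes can be compared. Every log2 fold change below is NFIC shRNA over scrambled shRNA from the read counts. Both measures are relative to the other transcripts of the same library. The amount of RNA per cell is not given, so a rise or fall here is not one per cell.

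The library sizes ranged from 20369543 to 24809720 counts. NFIC itself, the targeted gene, had 4.22 ± 0.0476 FPKM (SD, n = 3) with scrambled shRNA and 2.14 ± 0.161 FPKM (n = 3) in the knockdown, its log2 fold change being -0.99 (SE 0.072, adjusted p = 3.73e-09). The monocytic identity of the line was checked with 12 markers, all of which were detected. Of these, 5 rose (ITGAM, TYROBP and FCER1G among them), 5 fell (CD68, CD4 and CD33 among them) and 2 were not called, and their summed level went from 950–1019 to 1136–1294 FPKM. LYZ, the lysozyme gene, carried that rise, and the other 11 markers summed to 652–678 FPKM with scrambled shRNA and 640–690 FPKM with NFIC shRNA. Among 8 lymphoid markers CD3E, CD2 and MS4A1 were not among the genes analysed here and CD3D had 1 count in 1 library. NKG7 and CD79A fell, and the summed level of the lymphoid list went from 8.48–8.71 to 3.70–4.45 FPKM. Of 7 erythroid markers 1 passed the filter on low counts and was not called, at a summed level of 2.71–3.72 FPKM over all samples, and HBB had at most 3 counts in any library. The part of these markers in the transporter results was not tested. In bulk RNA a smaller number of cells of a kind and less RNA per cell cannot be told apart.

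A pair of libraries stood apart from the others of their groups. The first principal component separated the groups and held 77.2% of the variance. On the second, with 7.37%, scrambled replicate 2 lay at -18.0 and NFIC shRNA replicate 3 at -20.5, while the other 4 lay between 4.63 and 15.8. These libraries carry different replicate numbers in the labels but the same number, 3, in their sample names. These libraries were also the low ones for the transporters. Scrambled replicate 2 was the lowest of its group for 9 of the 10 genes, against 36.5% of all genes tested, and NFIC shRNA replicate 3 was the lowest of its group for 8 of the 10, against 33.3%. With both libraries left out, 8 transporters were again lower and 2 again higher, with log2 fold changes from -0.86 for SLC43A1 to 0.22 for SLC38A2. Leaving them out moved no transporter by more than SLC43A1, from -0.93 to -0.86.

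**Figure D1:**
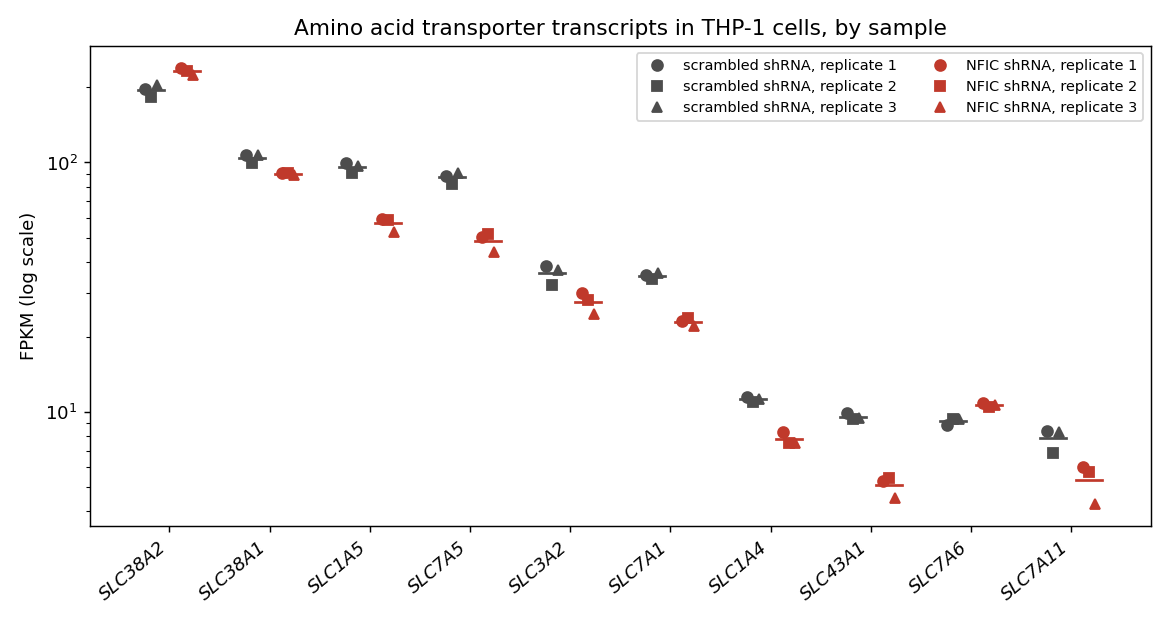
Transcript level in FPKM (log scale) of the 10 transporter genes in each of the 6 THP-1 samples, 3 with scrambled shRNA (grey) and 3 with NFIC shRNA (red), with the replicate given by the shape of the point and the group mean by a line. The 2 groups do not overlap for any gene, and SLC38A2 is the highest gene in both, at 194 and 232 FPKM.

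The promoters of the transporters were searched for short recognition sequences, since most of these genes moved in the same direction. RefSeq (GRCh38.p14) gave 16 windows for 9 of the 10 genes, each from 250 bases before to 50 bases after a transcript start. SLC7A11 had no entry. The core of the C/EBP-ATF response element, the site through which ATF4 acts during amino acid shortage, was spelled TGATGNAA and searched on both strands. It occurred in 5 of the 16 windows (31.2%) and in 3.62% of all 35116 promoter windows of the same length. The 5 stretches are shown because each holds this element, with the match in capitals, written along the strand of the gene.
SLC1A4, chr2:64989381-64989410, plus strand: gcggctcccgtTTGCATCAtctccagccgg
SLC3A2, chr11:62881719-62881748, plus strand: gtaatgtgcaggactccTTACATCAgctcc
SLC38A1, chr12:46266502-46266531, minus strand: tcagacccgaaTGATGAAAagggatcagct
SLC7A1, chr13:29595663-29595692, minus strand: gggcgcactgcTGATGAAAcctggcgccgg
SLC1A5, chr19:46784893-46784922, minus strand: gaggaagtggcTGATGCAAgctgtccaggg
In SLC1A4 and SLC3A2 the element was read on the opposite strand. In the GENCODE annotation all 30 bases of the SLC3A2 stretch, 26 of the SLC7A1 stretch, 13 of the SLC1A5 stretch and 12 of the SLC1A4 stretch were exonic, and the SLC38A1 stretch was intronic. The SLC7A1 stretch lay across the upstream end of its gene and those of the other genes lay inside theirs. A window can thus belong to an internal transcript start, and the SLC3A2 stretch lay far inside a gene that starts at 62856004.

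The canonical E-box CACGTG, which MYC and MAX bind as a pair, was in 3 of the 16 windows (18.8%) and in 7.26% of all windows. The stretches of SLC7A5 and SLC43A1 are shown, with the E-box in capitals, because they are the 2 transporters that fell furthest.
SLC7A5, chr16:87869619-87869648, minus strand: gccggacgacgCACGTGctccgagctgggc
SLC43A1, chr11:57515796-57515825, minus strand: agcgggcgagtCACGTGcgcgtgaaactcg
The SLC43A1 and SLC7A5 stretches ended 16 and 112 bases upstream of the annotated gene. The core of the antioxidant response element, TGACNNNGC, which NFE2L2 binds, was in 5 windows (31.2%), those of SLC7A5, SLC3A2, SLC7A1, SLC7A6 and SLC1A5 being represented, against 13.3% of all windows. The letters TTGGCA of the nuclear factor I recognition sequence were in 0 of the 16 windows and in 12.5% of all windows. A match is only a run of letters, and its absence says no more than that these letters are not in the window. Of the transporters that rose, SLC7A6 held only the antioxidant element and SLC38A2 none of these sequences.

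SLC3A2, the heavy chain (ENSG00000168003, chromosome 11, 62856004–62888880, plus strand, GRCh38), was lower in every NFIC shRNA sample. Its level was 38.5, 32.2 and 37.1 FPKM in scrambled replicates 1, 2 and 3, and 29.96, 28.2 and 24.8 FPKM in NFIC shRNA replicates 1, 2 and 3, the order kept for every gene. The lowest scrambled sample, replicate 2, was little above the highest NFIC shRNA sample, replicate 1. The mean fell to 76.9% of the scrambled level, from 35.9 ± 3.30 to 27.7 ± 2.64 FPKM (SD, n = 3 each), with a log2 fold change of -0.39 (SE 0.077, adjusted p = 0.000517). Without scrambled replicate 2 it was -0.47, and without NFIC shRNA replicate 3 it was -0.31.

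SLC7A5 (LAT1), the light chain that exchanges leucine and other large neutral amino acids (ENSG00000103257, chromosome 16, 87830023–87869507, minus strand), fell, and to a lower percentage of its scrambled level than the heavy chain. It was measured at 88.4, 82.2 and 90.9 FPKM with scrambled shRNA and at 50.2, 51.7 and 43.9 FPKM with NFIC shRNA. The gap between the groups was wider than the range within either. The mean fell to 55.8% of the scrambled level, from 87.2 ± 4.49 to 48.6 ± 4.10 FPKM, and the log2 fold change was -0.86 (SE 0.063, adjusted p = 5.47e-09). Its raw counts were 9253, 9752 and 9358 against 4964, 5731 and 4803. The pseudogenes SLC7A5P1 and SLC7A5P2, near copies to which reads of SLC7A5 could be assigned, held at most 26 and 32 counts in any library. Few of its reads were therefore assigned to them under the authors' counting. Whether reads that map to several places were left uncounted is not given in the paper, and these counts cannot show it.

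SLC7A11 (xCT), the light chain that imports cystine in exchange for glutamate (ENSG00000151012, chromosome 4, 138164097–138242349, minus strand), was the transporter with the widest spread between replicates relative to its level, the SD being 11.2% of the mean with scrambled shRNA and 17.3% with NFIC shRNA. The scrambled samples had 8.40, 6.83 and 8.31 FPKM and the NFIC shRNA samples 6.01, 5.72 and 4.28 FPKM. Each group had 1 low sample, scrambled replicate 2 and NFIC shRNA replicate 3. The mean fell to 68.1% of the scrambled level, from 7.85 ± 0.881 to 5.34 ± 0.926 FPKM, with a log2 fold change of -0.57 (SE 0.13, adjusted p = 0.00385). The value was -0.42 without NFIC shRNA replicate 3 and -0.67 without scrambled replicate 2, and it remained called in both fits. SLC7A11-AS1, which shares 865 exonic bases with SLC7A11 on the opposite strand, fell by 0.56 on the log2 scale (adjusted p = 0.00329). The strand setting of the read counting is not given in the sources used here, so the reads over the shared bases cannot be told apart.

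SLC7A6 (y+LAT2), the light chain that exchanges cationic for neutral amino acids (ENSG00000103064, chromosome 16, 68264516–68301823, plus strand), went the other way. It had 8.86, 9.35 and 9.39 FPKM with scrambled shRNA and 10.9, 10.5 and 10.7 FPKM with NFIC shRNA. Every knockdown sample lay above every scrambled one, by a small margin. The mean rose to 116% of the scrambled level, from 9.20 ± 0.296 to 10.7 ± 0.224 FPKM, with a log2 fold change of 0.20 (SE 0.054, adjusted p = 0.00439). SLC7A6OS, a protein-coding gene on the opposite strand that shares 3372 exonic bases with SLC7A6, rose by 0.26 on the log2 scale (adjusted p = 0.000877). Reads over these shared bases cannot be told apart without the strand setting either.

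The light chains therefore did not move alike, and the balance between chains shifted. The summed FPKM of SLC7A5, SLC7A6 and SLC7A11 per FPKM of SLC3A2 was 2.74, 3.05 and 2.93 with scrambled shRNA, against 2.24, 2.40 and 2.38 with NFIC shRNA. All knockdown samples were lower, with means of 2.91 ± 0.156 and 2.34 ± 0.0886. Adding the light chains SLC7A7 and SLC7A8 gave 2.96 ± 0.163 and 2.40 ± 0.0924, and adding SLC7A10 to these gave 3.15 ± 0.156 and 2.49 ± 0.101. SLC7A7 (y+LAT1) fell by 0.76 on the log2 scale (adjusted p = 0.000132) and SLC7A8 (LAT2) rose by 0.83 (adjusted p = 0.000545), both at low levels of at most 1.32 and 0.804 FPKM in any sample. Within the light chains, SLC7A6 per SLC7A5 went from 0.106 ± 0.00713 to 0.221 ± 0.0205, and SLC7A5 per SLC3A2 from 2.43 ± 0.129 to 1.76 ± 0.0791. These are ratios of transcripts, given as a description without a test, and 3 samples against 3 could not give an exact two-sided permutation p below 0.1.

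**Figure D2:**
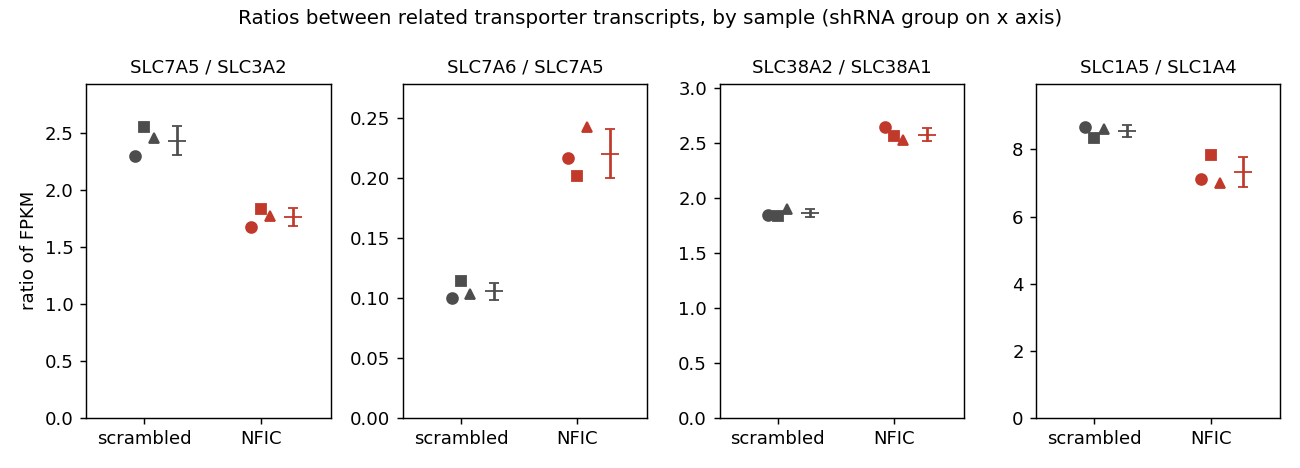
Ratio of FPKM between related transporter transcripts in each sample (points) with the group mean ± SD (bars, n = 3), for SLC7A5 over SLC3A2, SLC7A6 over SLC7A5, SLC38A2 over SLC38A1 and SLC1A5 over SLC1A4, with the shRNA group on the x axis and every y axis starting at 0. The groups do not overlap in any panel, and SLC7A6 over SLC7A5 goes from 0.106 to 0.221.

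SLC7A1 (CAT-1), which carries arginine and lysine without a heavy chain (ENSG00000139514, chromosome 13, 29509414–29595688, minus strand), fell with little spread. The scrambled samples had 35.4, 34.1 and 36.2 FPKM and the NFIC shRNA samples 23.3, 23.8 and 22.1 FPKM. The replicates of each group lay close together and the groups were well apart. The mean was 35.2 ± 1.06 FPKM and then 23.0 ± 0.854 FPKM, or 65.4% of the scrambled level, with a log2 fold change of -0.63 (SE 0.051, adjusted p = 1.29e-08).

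SLC43A1 (LAT3), a facilitative carrier of branched-chain amino acids and phenylalanine (ENSG00000149150, chromosome 11, 57484534–57515780, minus strand), showed the largest decrease of the 10 genes. It stood at 9.92, 9.37 and 9.46 FPKM with scrambled shRNA and at 5.31, 5.45 and 4.54 FPKM with NFIC shRNA. No NFIC shRNA sample exceeded 56.8% of the scrambled mean. The level went from 9.58 ± 0.292 to 5.10 ± 0.491 FPKM, or 53.2%, with a log2 fold change of -0.93 (SE 0.082, adjusted p = 4.20e-08). It also had the fewest reads of the 10, with 721 to 823 counts in the scrambled and 367 to 447 counts in the NFIC shRNA samples.

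SLC1A5 (ASCT2), the exchanger known for glutamine uptake in cancer cells (ENSG00000105281, chromosome 19, 46774883–46788594, minus strand), was the third highest of the transporters with scrambled shRNA. Its level was 99.6, 91.1 and 97.0 FPKM with scrambled shRNA, against 59.2, 59.0 and 52.8 FPKM with NFIC shRNA. The groups were separated by more than their own range. The mean fell from 95.9 ± 4.37 to 57.0 ± 3.64 FPKM, to 59.4% of the scrambled level, with a log2 fold change of -0.77 (SE 0.057, adjusted p = 5.22e-09).

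SLC1A4 (ASCT1), its relative that exchanges alanine, serine and cysteine (ENSG00000115902, chromosome 2, 64988477–65023865, plus strand), fell as well from a lower level. It had 11.5, 10.9 and 11.2 FPKM with scrambled shRNA and 8.30, 7.51 and 7.54 FPKM with NFIC shRNA. Its highest NFIC shRNA sample, replicate 1, was still below every scrambled sample. The means were 11.2 ± 0.284 and 7.78 ± 0.448 FPKM, a log2 fold change of -0.54 (SE 0.060, adjusted p = 5.49e-07). SLC1A5 per SLC1A4 was 8.54 ± 0.181 and then 7.33 ± 0.457, lower in all 3 NFIC shRNA samples.

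SLC38A1 and SLC38A2, the sodium-coupled carriers SNAT1 and SNAT2 that concentrate glutamine and other small neutral amino acids, moved in opposite directions. Both lie on the minus strand of chromosome 12, SLC38A1 (ENSG00000111371) from 46183063 to 46270017 and SLC38A2 (ENSG00000134294) from 46358188 to 46372773, with 88.17 kb and 0 protein-coding genes between them. SLC38A1 had 107, 99.7 and 107 FPKM with scrambled shRNA and 90.7, 90.6 and 88.8 FPKM with NFIC shRNA. All of its NFIC shRNA samples were lower, and they were closer to one another than the scrambled samples were. The mean went from 105 ± 4.23 to 90.1 ± 1.06 FPKM, with a log2 fold change of -0.23 (SE 0.049, adjusted p = 0.000550).

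SLC38A2, the carrier of the pair that is best known for being induced when amino acids run short, had 197, 183 and 204 FPKM with scrambled shRNA and 239.6, 232 and 224 FPKM with NFIC shRNA. Its lowest knockdown sample, replicate 3, exceeded its highest scrambled sample, also replicate 3. The mean rose to 119% of the scrambled level, from 194 ± 10.9 to 232 ± 7.77 FPKM, with a log2 fold change of 0.24 (SE 0.053, adjusted p = 0.000897). SLC38A2 per SLC38A1 was 1.84, 1.83 and 1.90 with scrambled shRNA, against 2.64, 2.56 and 2.52 with NFIC shRNA. This ratio, with means of 1.86 ± 0.0362 and 2.57 ± 0.0612, differed between the groups by more than its spread within them.

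**Figure D3:**
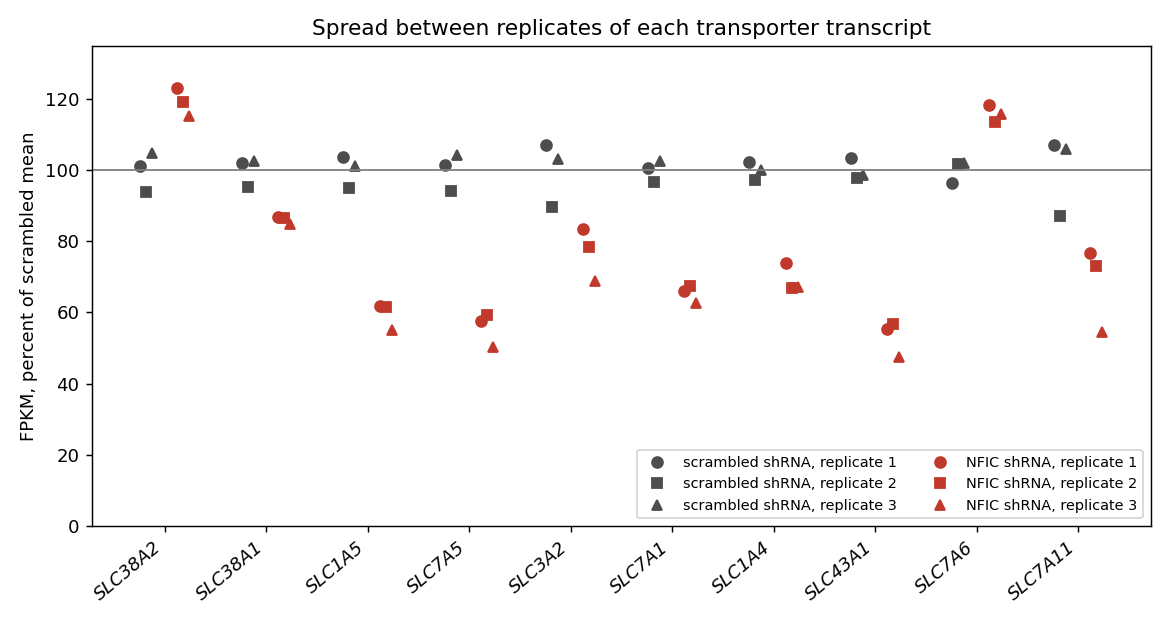
FPKM of each transporter in each sample as a percentage of the mean of the scrambled samples (line at 100), with scrambled shRNA in grey, NFIC shRNA in red and the replicate given by the shape of the point. SLC43A1 lies between 47.3 and 56.8% with NFIC shRNA, whereas SLC38A2 lies between 115 and 123%.

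Summed over the 10 genes, the transcripts held 591 ± 28.6 FPKM in the scrambled and 507 ± 20.9 FPKM in the NFIC shRNA samples. SLC38A2 made up 32.9 ± 0.435% of this sum with scrambled shRNA and 45.7 ± 0.634% with NFIC shRNA. The order of the levels was SLC38A2, SLC38A1, SLC1A5, SLC7A5, SLC3A2, SLC7A1, SLC1A4, SLC43A1, SLC7A6 and SLC7A11 in the scrambled samples. In that order SLC3A2 and SLC7A1 overlapped in their samples, as did SLC43A1 and SLC7A6, and these neighbours could not be ranked. The first 6 places were the same with NFIC shRNA, followed by SLC7A6, SLC1A4, SLC7A11 and SLC43A1. There only SLC7A11 and SLC43A1 overlapped. SLC43A1 thus moved from above SLC7A11 to a level that overlapped with it, and SLC7A6 from below SLC1A4 to above it.

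**Figure D4:**
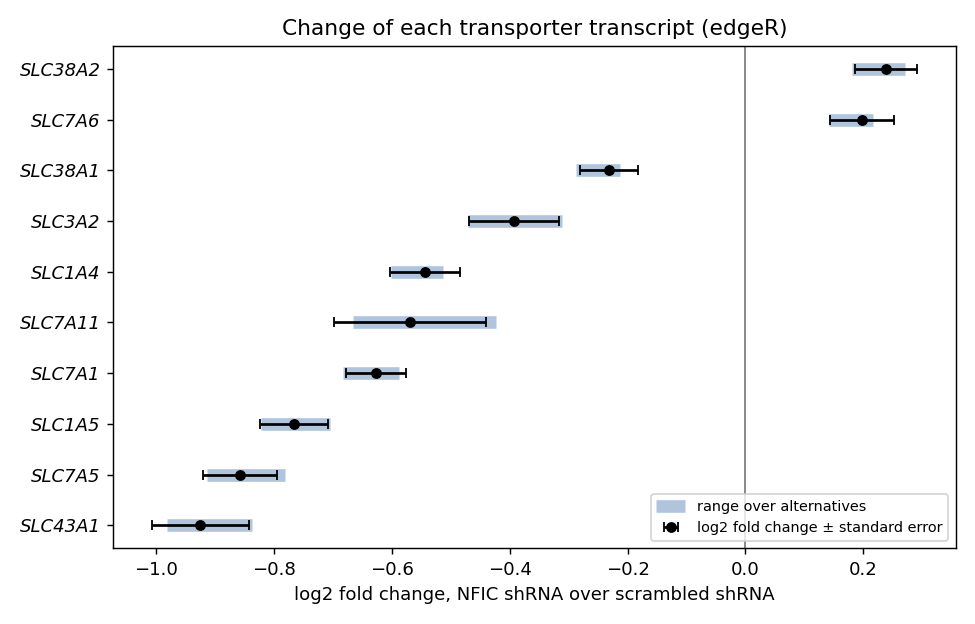
Log2 fold change of NFIC shRNA over scrambled shRNA for each transporter from edgeR (point) with its standard error (bar), and the range of the value over 15 other ways of processing (blue). SLC43A1 is lowest at -0.93 and SLC38A2 highest at 0.24, and no range crosses 0.

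Other carriers of the plasma membrane were examined as a list of 29 genes, of which 15 had enough reads to be tested. Of these, 10 fell, 3 rose and 2 were not called, with a median log2 fold change of -0.756. For this and each following list, the shares over all genes tested were 29.6% called higher and 30.3% called lower. The decreases with the smallest adjusted p were those of SLC38A5 (SNAT5, a glutamine and glycine carrier), SLC7A10 (Asc-1, a further light chain of SLC3A2 that carries small neutral amino acids) and SLC7A2 (CAT-2, a carrier of arginine). SLC38A5 went from 1.75 ± 0.197 to 0.298 ± 0.0737 FPKM, a log2 fold change of -2.56 (SE 0.19, adjusted p = 4.15e-09). SLC7A10 went from 7.14 ± 0.996 to 2.57 ± 0.202 FPKM. It fell by 1.48 and SLC7A2 by 0.74 on the log2 scale (adjusted p = 7.35e-09 and 6.36e-07). The genes that rose were SLC7A8, SLC6A6 (a taurine transporter) by 0.30 and SLC43A2 (LAT4, a relative of SLC43A1) by 0.24 (adjusted p = 0.00186 and 0.00244 for the last 2). SLC43A1 and SLC43A2 therefore moved in opposite directions.

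Carriers of the lysosome and other inner membranes did not share the direction of those 2 lists. Of 13 tested, 3 rose, 3 fell and 7 were not called, with a median of 0.053. SLC17A5 (the lysosomal sialic acid exporter) rose by 0.79, SLC36A1 (a proton-coupled amino acid carrier) by 0.60 and SLC38A9 (the arginine sensor of the lysosome) by 0.34 on the log2 scale. MFSD12 (a cysteine importer of the lysosome) fell by 0.41, SLC38A10 by 0.18 and CTNS (the cystine exporter) by 0.27. The CTNS call was lost in 7 of the alternative fits and the SLC38A10 call without NFIC shRNA replicate 3, so neither decrease is firm. SLC36A1 and SLC38A9 are also components of amino acid sensing at the lysosome.

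Genes of amino acid sensing to mTORC1, the kinase complex that SLC7A5 and SLC3A2 are known to supply with leucine, moved in both directions. Of 40 genes tested, 20 rose, 8 fell and 12 were not called, with a median log2 fold change of 0.168. RRAGD, a Rag GTPase that recruits mTORC1, rose from 11.6 ± 0.446 to 25.6 ± 0.0675 FPKM, a log2 fold change of 1.12 (adjusted p = 2.73e-11). FNIP2, a partner of folliculin, rose by 1.41 and TSC1, an inhibitor of the pathway, by 0.89. EIF4EBP1, the translation repressor that mTORC1 phosphorylates, fell by 1.19, and SEH1L and NPRL3, subunits of the GATOR complexes, fell by 0.86 each. The list held activators and inhibitors on both sides.

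In the amino acid response, shortage acts through EIF2AK4 and ATF4 on targets that include several of these transporters. The list mixed EIF2AK4, kinases related to it, factors of the response and genes that the response acts on. Its calls went in both directions. Of 21 genes 7 rose, 9 fell and 5 were not called, with a median of -0.0351. EIF2AK4, the kinase that senses uncharged transfer RNA, fell by 0.43 on the log2 scale (adjusted p = 9.08e-06). ATF4, named in addition because the response element above is its site, had 379 ± 16.8 and 374 ± 16.5 FPKM and was not called (log2 fold change -0.035, SE 0.052, adjusted p = 0.577). VLDLR, DDIT3 and PPP1R15A rose by 0.63, 0.46 and 0.41 on the log2 scale. EIF2AK1 and EIF2AK2, the related kinases, and CEBPB and CEBPG were also called higher, by 0.15, 0.26, 0.25 and 0.19. DDIT4 (an mTORC1 inhibitor) fell by 1.22, PSAT1 (an enzyme of serine synthesis) by 0.60 and NUPR1 (a stress-induced chromatin protein) from 0.721 ± 0.209 to 0.0312 ± 0.0262 FPKM, where it had 2, 2 and 8 counts. ASNS, CHAC1, TRIB3, PSPH and PHGDH of the same list were called lower too, by 0.65, 0.88, 0.47, 0.84 and 0.16. The 5 transporters whose promoter windows held the C/EBP-ATF element were SLC1A5, SLC7A1, SLC1A4, SLC3A2 and SLC38A1, which fell by between 0.77 and 0.23. SLC43A1 and SLC7A5, searched without a match, fell further, by 0.93 and 0.86. SLC38A2 and SLC7A6, also without a match, rose by 0.24 and 0.20. SLC7A11 had no window to search. Only windows from 250 bases before to 50 bases after a transcript start were searched. An element elsewhere in a gene would be missed. Any part of the element in these changes was not tested.

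Among enzymes that use the amino acids carried, 19 of 27 tested fell, 1 rose and 7 were not called, with a median log2 fold change of -0.491. The number that rose was 2 without scrambled replicate 2, NFIC shRNA replicate 2 or NFIC shRNA replicate 3. BCAT1, which transaminates branched-chain amino acids, fell by 1.06 on the log2 scale (adjusted p = 2.07e-10). MAT2A, which makes S-adenosylmethionine, fell by 0.90 and SHMT2, the mitochondrial serine hydroxymethyltransferase, by 0.99. DBT, a subunit of the branched-chain ketoacid dehydrogenase, was the 1 gene that rose, by 0.40.

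Among 16 known regulators of the transporters, 6 rose, 8 fell and 2 were not called, and 3 rose with upper-quartile normalization. MYC, which is known to act on SLC7A5, SLC43A1 and SLC1A5, fell from 48.4 ± 1.81 to 18.7 ± 1.69 FPKM, a log2 fold change of -1.39 (SE 0.064, adjusted p = 2.37e-11). Its partner MAX fell by 0.74 and ARRDC3, an arrestin that directs membrane proteins to endosomes, by 0.65. NEDD4, a ubiquitin ligase, rose by 0.82, BAP1, a deubiquitinase that represses SLC7A11, by 0.27, and NFE2L2, the factor of the antioxidant response element, by 0.26. These values stand beside those of the transporters, and any dependence of one on the other was not tested.

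**Figure D5:**
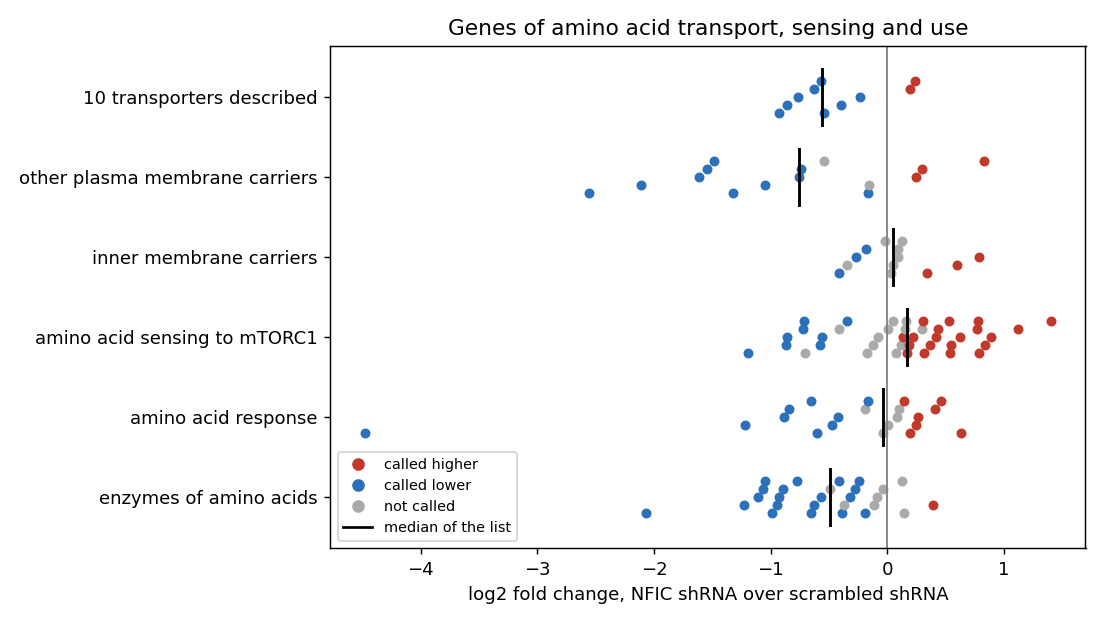
Log2 fold change of NFIC shRNA over scrambled shRNA for every tested gene of the transporter list and 5 related lists (points), coloured red where called higher, blue where called lower and grey where not called, with the median of each list as a black line. The medians are -0.557 for the 10 transporters, -0.756 for other plasma membrane carriers, 0.053 for inner membrane carriers, 0.168 for amino acid sensing, -0.0351 for the amino acid response and -0.491 for the enzymes.

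Near copies of the transporters and other transcripts close to their loci were examined last. SNHG1, a noncoding RNA whose annotated span does not overlap SLC3A2, fell by 0.69 on the log2 scale (adjusted p = 2.17e-08). SLC7A5P1 fell by 1.20 (adjusted p = 0.00405) on 9 to 26 counts per library, and SLC7A5P2 was not called (log2 fold change -0.032, adjusted p = 0.923). Further loci without a symbol in the annotation shared exonic bases with a transporter on the opposite strand, so a part of their reads could be assigned to either. ENSG00000275719 shared 780 bases with SLC1A5 and fell by 0.76 on the log2 scale (adjusted p = 5.83e-08) on 1055 to 2048 counts per library. ENSG00000260466 shared 271 bases with SLC7A5 and fell by 0.81 (adjusted p = 2.31e-07) on 458 to 941 counts. ENSG00000279649 shared 845 bases with SLC7A6 and was not called (log2 fold change 0.17, adjusted p = 0.247) on 132 to 174 counts.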

How the data were processed

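Bulk mRNA from 3 scrambled shRNA and 3 NFIC shRNA samples of THP-1 cells was used. Per the submitters' processing notes and the paper, reads were trimmed by the authors (Trim Galore, FastQC), mapped to GRCh38 with STAR, counted per gene with featureCounts on Ensembl release 96 and normalized with DESeq2. Versions and the strand setting are not given in the sources used here. The authors deposited raw counts per gene, a normalized signal (count over size factor) and FPKM, which divides that signal by gene length and by 1 total shared by all samples. The normalized signal was used only to check the size factors. The authors' fold changes and p-values, also in the table, were not used.

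Counts were tested in edgeR 4.0.16 (R 4.3.3) with TMM, the filter on low counts, robust quasi-likelihood fits and Benjamini-Hochberg adjustment over 19182 genes, at 0.05, with group as the only term. The standard error was the size of the log2 fold change over the square root of F. The edgeR fit was tested on simulated data in which few genes changed, evenly in both directions. That test does not cover data in which many genes change, as here. FPKM are mean ± SD. Total counts ranged from 20369543 to 24809720, and the transporters had 367 to 35117 counts in a sample. Replicates differed by more than counting noise in every pair (chi-square per degree of freedom 1.94 to 7.30), so none was counted as a repeat of another. The standard errors and p-values take in the spread between these samples as well as counting error, and that spread may be technical. Positions are from GENCODE 44 and promoters from RefSeq, both on GRCh38.

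The named genes are the 10 transporters, NFIC, the light chains SLC7A7 and SLC7A8, the genes of the near-copy list and, from each other list, up to 3 higher and 3 lower with the smallest adjusted p. ATF4, LYZ, the markers at low counts and the overlapping loci were named outside this rule, after their values were seen. So were EIF2AK4 and the remaining called genes of the amino acid response. The transporters and lists were chosen with earlier results of these data known. Alternatives were DESeq2 1.42.0, other normalizations (DESeq2's size factors, upper quartile, total counts), no filter, a minimum of 10 counts, each sample left out, replicate blocks and, added after seeing the data, both outlying libraries left out. The paper names 1 control sample differently from the labels, which were followed. Protein sequences were not used here. An overlapping gene and a promoter stretch are not reported here.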

Additional observations from a re-analysis of the deposited data

How the results depend on the processing

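All 10 transporters kept their direction and call in each of 15 alternatives, 150 values in all. The log2 fold change of SLC7A5 ranged from -0.91 to -0.78, of SLC43A1 from -0.98 to -0.84, of SLC1A5 from -0.82 to -0.71, of SLC7A1 from -0.68 to -0.59, of SLC7A11 from -0.67 to -0.42, of SLC1A4 from -0.60 to -0.51, of SLC3A2 from -0.47 to -0.31, of SLC38A1 from -0.29 to -0.21, of SLC38A2 from 0.18 to 0.27 and of SLC7A6 from 0.14 to 0.22. The highest adjusted p were 0.0362 for SLC7A6 without scrambled replicate 1 and 0.0127 for SLC7A11 without scrambled replicate 3. The difference in light chains per heavy chain ranged from -0.65 to -0.50 with each sample left out and was -0.56 with SLC7A7 and SLC7A8 and, as an addition after seeing the data, -0.67 with SLC7A10 as well.

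Sample numbers were not taken to pair the samples, since no source ties them to a shared culture or day. The correlations of deviations from the group means were 0.0563, -0.0862 and -0.0446 by label number. By the number in the sample name they were 0.0563 and, for the outlying pair of libraries, 0.145. The samples left over, which share no number in their names, were set together and had 0.0267. Every transporter had a smaller standard error with the block by sample name than without a block. It went from 0.13 to 0.056 for SLC7A11 and from 0.054 to 0.052 for SLC7A6. Whether the shared number marks a shared culture was not tested. With a replicate block 8 transporters were lower and 2 higher under either numbering, and over all genes 5439 rose and 5544 fell by label number and 5981 and 6118 by sample name, against 5676 and 5810 without it.

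Enzymes called higher went from 1 to 2 with total counts and with both outlying libraries left out, and were 1 to 2 with each sample left out. Regulators called higher went from 6 to 3 with upper-quartile normalization, which moved the median of all genes from -0.0113 to -0.068. Erythroid markers called lower went from 0 to 1 with DESeq2 and without the filter, and were 0 to 1 with each sample left out. The causes were not tested. Of 688 alternative values for 46 other genes named for their adjusted p, 680 kept direction and call. The 8 lost calls were 7 for CTNS, at adjusted p from 0.0543 to 0.160, and 1 for SLC38A10, at 0.0543 without NFIC shRNA replicate 3. Groups of 3, 1 cell line and 1 hairpin limit all results, and transcript levels are not transport.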
